A study of Schizosaccharomyces pombe with 6 samples.

Results

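The meiotic recombination genes *rec6*, *rec7*, *rec10*, *rec11*, *rec12*, *rec15*, *rec24*, *rec25*, *rec27* and *dmc1* were followed in poly(A)+ RNA of fission yeast. They were chosen by gene name, 10 of the 6986 IDs in the count table. The rule itself uses no measured value, but the choice was made with earlier results of these data known. RNA-seq counts were compared between 3 biological replicates of *spx1*Δ cells (*h+* *spx1*Δ::*kanMX*, strain BS53) and 3 of wild-type cells (*h+*, strain AGP73). *spx1* encodes a protein with an SPX domain, which binds inositol pyrophosphates, and a RING finger. All cultures were haploid, of the same mating type, labelled as vegetative, and taken in log phase from YES, a rich medium, at 30°C. Each genotype was represented by a single strain, so a difference carried by the strain and one caused by *spx1*Δ cannot be told apart, and the p-values reflect only how far these cultures of 1 strain each differed.

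In meiosis the chromosomes are broken on purpose and repaired from the homologous chromosome. Rec12, the ortholog of Spo11, makes the double-strand breaks together with partner proteins that include Rec6, Rec7, Rec15 and Rec24. Rec10, Rec25 and Rec27 build the linear elements, the fission yeast counterpart of the synaptonemal complex axis, on cohesin that holds the meiotic subunits Rec8 and Rec11, and Dmc1, a strand exchange protein made in meiosis, pairs the broken end with its homolog. Haploid cells in rich medium do not enter meiosis, and several meiotic transcripts made in such cells are degraded by a system that depends on the RNA-binding protein Mmi1.

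Total counts were 20929960 to 24696086 in *spx1*Δ libraries and 11539278 to 15282140 in wild-type libraries, so depth and strain cannot be told apart. *spx1*Δ replicate 1 stood apart from its group. Across genes, its log2 normalized counts had a Pearson coefficient of 0.967 and 0.982 with *spx1*Δ replicates 2 and 3, whereas the coefficient between those replicates was 0.996 and those between wild-type replicates were all 0.995. With wild-type replicates 1, 2 and 3 its coefficient was 0.972, 0.973 and 0.973, so that it lay nearer to each wild-type library than to *spx1*Δ replicate 2. The chi-square statistic of its counts per degree of freedom was also smaller against each wild-type library, at 55.2 to 72.6, than against *spx1*Δ replicates 2 and 3, at 172 and 102. That statistic uses raw counts and grows with depth, and the wild-type libraries were shallower, so it does not separate depth from likeness. The targeted gene *spx1* (SPAC6B12.07c) had 2163, 2185 and 2062 normalized counts in *spx1*Δ replicates 1, 2 and 3, against 5436, 5290.4 and 5153 in wild-type replicates, and a fitted log2 ratio of -1.31 (SE, for standard error, 0.05; adjusted p = 1.07e-04 by edgeR's quasi-likelihood test). The open reading frame was replaced whole, yet these libraries kept 0.404 of the wild-type level; counts per gene do not show which part of the gene the remaining reads cover, so the value does not check the full deletion, and *spx1*Δ here names libraries by their label. A normalized count is the count divided by the TMM-scaled library size and multiplied by the mean scaled size. Protein-coding genes took 96.3% to 97.7% of the counts in *spx1*Δ and 98.3% to 98.4% in wild-type libraries. Because the libraries are of whole cultures, a rise in all cells and a larger rise in a few cells cannot be told apart.

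Of the 10 recombination genes, *rec6*, *rec7*, *rec10*, *rec15* and *rec25* rose in *spx1*Δ cells, *rec12* fell, and *rec11*, *rec24*, *rec27* and *dmc1* did not pass the test. A gene was called at an adjusted p of at most 0.05 over all genes tested. All 10 were among the 6127 genes that passed the filter on low counts. The 5 rises stand beside 27.6% of all genes tested called higher, and the 1 fall beside 25.4% called lower. Among protein-coding genes alone these shares were 21.2% and 30.2%. The median log2 fold change of the 10 genes was 0.35, against -0.01 over all genes tested. Replicate values of the strains did not overlap for 5 genes that were higher and 2, *rec11* and *rec12*, that were lower; over all genes 32.7% were higher and 33.5% lower without overlap. The stricter rule of the study, which also asks for a 2-fold change and for 100 or more normalized counts on average in one of the strains, retained 1 gene, *rec25*; it called 7.51% of all genes higher and 2.25% lower. Together the 10 genes took 3055, 3497 and 3197 counts in *spx1*Δ replicates 1, 2 and 3, against 1223, 969 and 1232 in the shallower wild-type replicates. Of these, *rec10* alone took 1645, 2015 and 1965 in *spx1*Δ and 586, 478 and 656 in wild-type replicates. The summed normalized counts of the 10 genes were 2262 to 2836 in *spx1*Δ and 1478 to 1580 in wild-type libraries.

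**Figure D1:**
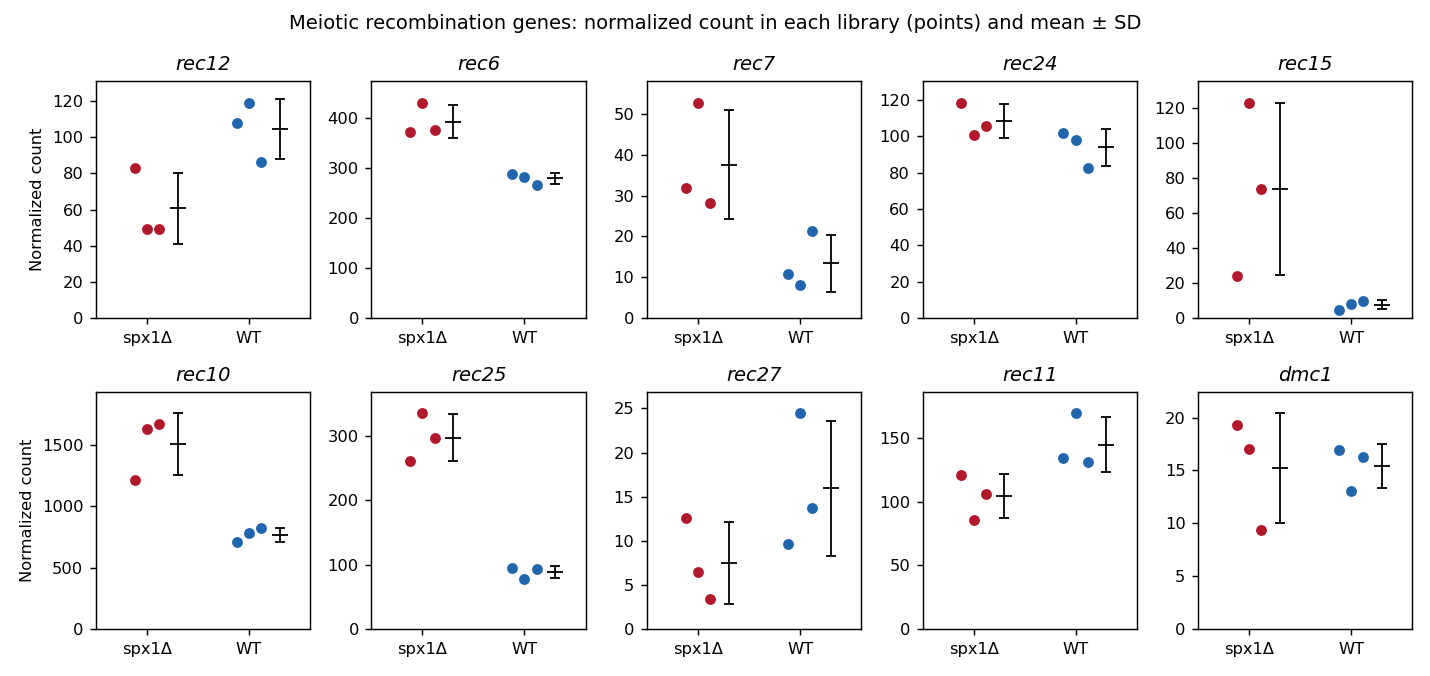
Normalized counts (vertical axis, from 0, a separate scale for each gene) of the 10 recombination genes in 3 *spx1*Δ (red) and 3 wild-type (blue) libraries, with the mean ± SD in black. All *spx1*Δ points lie above all wild-type points for *rec6*, *rec7*, *rec15*, *rec10* and *rec25*, and below them for *rec12* and *rec11*.

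The genes for break formation did not move together. *rec12*, for the protein that cuts the DNA, had 82.9, 49.5 and 49.3 normalized counts in *spx1*Δ replicates 1, 2 and 3, against 108, 119 and 86.3 in wild-type replicates. All 3 *spx1*Δ values lay below the lowest wild-type value, the first of them only just. *rec12* fell by 0.78 on the log2 scale (SE 0.27, adjusted p = 0.0466 by edgeR). This call rested on the full set of libraries: leaving out any 1 library other than *spx1*Δ replicate 1 gave an adjusted p of 0.0749 to 0.150, and leaving out that replicate gave a log2 fold change of -1.07 (adjusted p = 7.37e-04).

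*rec6*, whose product resembles the B subunit of topoisomerase VI and acts with Rec12, had 372, 431 and 375 normalized counts in *spx1*Δ replicates, against 289, 282 and 266 in wild-type replicates. The groups did not overlap, and the rise was the smallest of the 5, with a log2 fold change of 0.49 (SE 0.11, adjusted p = 0.0120). Without wild-type replicate 3 the adjusted p was 0.0559. *rec7*, the relative of budding yeast Rec114, was counted 43, 65 and 33 times in *spx1*Δ libraries and 9, 5 and 17 times in wild-type libraries. Normalized, these were 31.8, 52.7 and 28.1 in *spx1*Δ and 10.9, 8.15 and 21.3 in wild-type replicates, without overlap. *rec7* rose by a log2 fold change of 1.45 (SE 0.42, adjusted p = 0.0291), and the call was lost without wild-type replicate 1 or 2 or *spx1*Δ replicate 2 or 3, at an adjusted p of 0.0550 to 0.106.

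*rec15*, for a protein that joins the break machinery to the linear elements, was nearly silent in wild-type cells. It was counted 33, 152 and 87 times in *spx1*Δ libraries and 4, 5 and 8 times in wild-type libraries. Its normalized counts were 24.4, 123 and 74.0 in *spx1*Δ replicates 1, 2 and 3, against 4.83, 8.15 and 10.003 in wild-type replicates. Every *spx1*Δ value lay above every wild-type value, but replicate 2 was far above replicate 1 of its own strain. The log2 fold change of 3.25, a 9.55-fold rise, was the largest among the 10 genes and the least precise of the rises (95% interval 1.55 to 4.96, adjusted p = 0.0121 by edgeR). It ranged from 2.66 to 3.68 with 1 library left out, and without wild-type replicate 1 the adjusted p was 0.0540. *rec24*, for the partner that binds Rec7, had 118, 101 and 105 normalized counts in *spx1*Δ replicates, against 102, 97.8 and 82.5 in wild-type replicates. The groups overlapped, and the log2 fold change of 0.20 had an interval of -0.18 to 0.59 (adjusted p = 0.307).

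**Figure D2:**
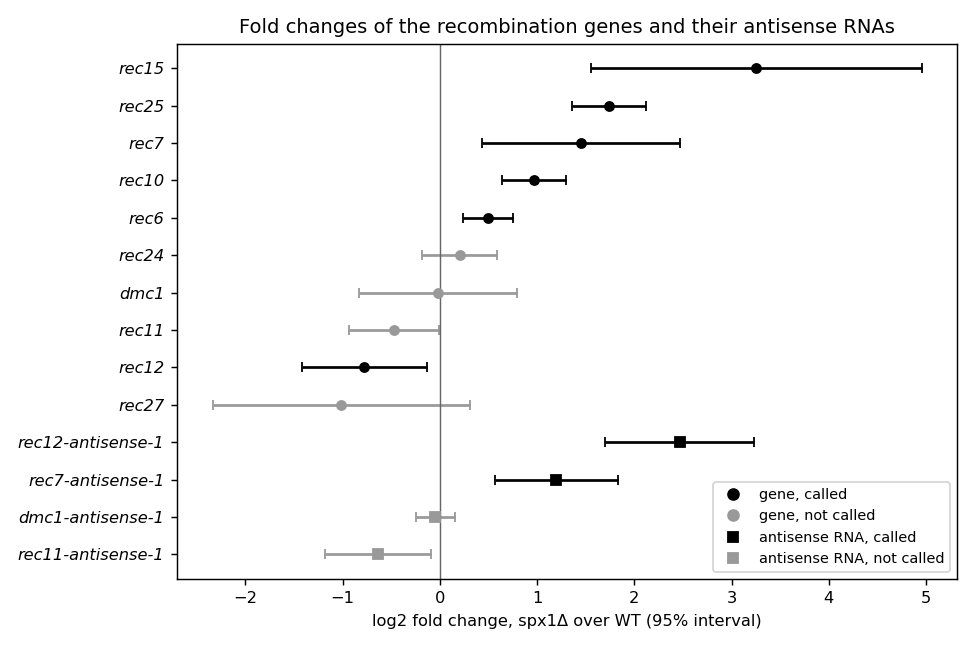
Log2 fold change of *spx1*Δ over wild type (horizontal axis) with its 95% interval from the edgeR fit, for the 10 recombination genes (circles) and the 4 antisense RNAs with counts (squares); black marks those called at an adjusted p of at most 0.05. *rec15* and *rec12-antisense-1* have the largest values, 3.25 and 2.47, and the intervals of *rec24*, *dmc1*, *rec27* and *dmc1-antisense-1* include 0.

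Among the linear element genes, *rec10* and *rec25* rose, and *rec27* did not pass the test. *rec10*, for the main structural component of the linear elements, had 1218, 1634 and 1672 normalized counts in *spx1*Δ replicates 1, 2 and 3, against 708, 779 and 820.2 in wild-type replicates. The lowest *spx1*Δ value was well above the highest wild-type value, and the log2 fold change was 0.97, or 1.96-fold (SE 0.14, adjusted p = 0.00411 by edgeR). *rec25*, for a small protein of the linear elements that marks break hotspots, had 261, 336 and 297 normalized counts in *spx1*Δ replicates, against 95.5, 78.3 and 92.5 in wild-type replicates. Its groups were far apart in every library. *rec25* rose by a log2 fold change of 1.74, or 3.34-fold (SE 0.16, adjusted p = 0.00184). Both genes passed the test under every alternative that was run, with an adjusted p of at most 0.0276 for *rec10* and 0.0200 for *rec25*.

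*rec27*, whose product forms a complex with Rec25, did not go the same way. It was counted 17, 8 and 4 times in *spx1*Δ libraries and 8, 15 and 11 times in wild-type libraries. The normalized counts of 12.6, 6.49 and 3.40 in *spx1*Δ replicates and 9.67, 24.5 and 13.8 in wild-type replicates overlapped. Its log2 fold change of -1.01 had a 95% interval of -2.34 to 0.31 (adjusted p = 0.158), and without *spx1*Δ replicate 1 it was -1.60 (adjusted p = 0.0183). At these counts a change in either direction was not resolved with all 6 libraries.

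*rec11*, for the meiotic cohesin subunit of chromosome arms through which Rec10 is loaded, had 121, 86.0 and 106 normalized counts in *spx1*Δ replicates, against 134, 170 and 131 in wild-type replicates. The groups did not overlap, yet the log2 fold change of -0.47 (SE 0.19) had an adjusted p of 0.0760; without *spx1*Δ replicate 1 it was -0.59 (adjusted p = 0.0126). *dmc1*, for the strand exchange protein, was counted 26, 21 and 11 times in *spx1*Δ libraries and 14, 8 and 13 times in wild-type libraries. Its normalized counts were 19.2, 17.0 and 9.36 in *spx1*Δ and 16.9, 13.0 and 16.3 in wild-type replicates, and the strains overlapped. The log2 fold change of -0.02 (adjusted p = 0.961 by edgeR) had a 95% interval of -0.83 to 0.79.

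**Figure D3:**
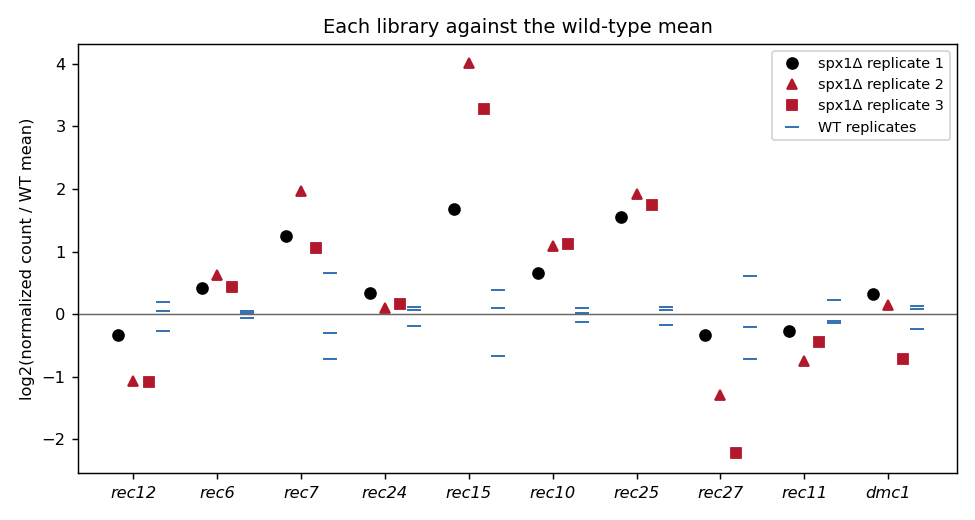
Log2 ratio of each library's normalized count to the wild-type mean (vertical axis) for the 10 recombination genes, with *spx1*Δ replicate 1 in black, replicates 2 and 3 in red and wild-type replicates as blue dashes. *spx1*Δ replicate 1 was nearest to the wild-type mean for 7 of the 10 genes; for *rec15* the values were 1.67, 4.01 and 3.27 in replicates 1, 2 and 3.

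The libraries of *spx1*Δ cells differed in how far they departed from wild type. *spx1*Δ replicate 1 was the nearest to the wild-type mean for 7 of the 10 genes, and for 4547 of the 6127 genes tested. *rec10* departed from its wild-type mean by 0.66 on the log2 scale in *spx1*Δ replicate 1, and by 1.09 and 1.12 in replicates 2 and 3 of the same strain. For *rec12* it was -0.33 in replicate 1 and -1.08 in both other replicates. *rec25* varied least among the larger changes, at 1.56, 1.92 and 1.74 in replicates 1, 2 and 3. Without *spx1*Δ replicate 1, 5 of the 10 genes were called higher and 3 lower, while the calls over all genes were 36.8% higher and 38.5% lower.

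Antisense RNAs are annotated at *rec7*, *rec11*, *rec12* and *dmc1*. Such RNAs are read from the opposite strand across the gene. The fitted change of the antisense RNA was opposite in sign to that of the gene at *rec12* and of the same sign at the other loci. At *rec11* and *dmc1* neither the gene nor its antisense RNA passed the test. At *dmc1* the values were -0.02 and -0.05, and their signs turned under some alternatives. Of 7 antisense RNAs, 4 passed the filter, 2 of those rose and the other 2 did not pass the test; *tos1*, *tos2* and *rec7-antisense-2*, all at *rec7*, had 0 counts in every library. Among all 613 antisense RNAs tested, 59.7% were called higher and 3.43% lower. *rec12-antisense-1* (SPNCRNA.760) had 141, 302 and 249 normalized counts in *spx1*Δ replicates 1, 2 and 3, against 44.7, 44.0 and 36.3 in wild-type replicates. The lowest *spx1*Δ value was several times the highest wild-type value. Its log2 fold change was 2.47, or 5.52-fold (SE 0.32, adjusted p = 0.00374 by edgeR), and it passed under every alternative that was run, at an adjusted p of at most 0.0275. *rec7-antisense-1* (SPNCRNA.1203) had 181, 354 and 305 normalized counts in *spx1*Δ replicates, against 115, 135 and 116 in wild-type replicates. The groups did not overlap, the log2 fold change was 1.20 (SE 0.26, adjusted p = 0.0126), and the adjusted p was 0.0508, 0.0546 and 0.0556 without *spx1*Δ replicate 3, wild-type replicate 1 and wild-type replicate 3.

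*rec11-antisense-1* had 34.8, 24.3 and 25.5 normalized counts in *spx1*Δ replicates, against 42.3, 50.5 and 40.0 in wild-type replicates. Lower in each *spx1*Δ library, it had a log2 fold change of -0.64 (adjusted p = 0.0530), and without *spx1*Δ replicate 1 one of -0.82 (adjusted p = 0.0102). *dmc1-antisense-1* had 887, 837 and 922 normalized counts in *spx1*Δ replicates and 897, 848 and 985 in wild-type replicates. It overlapped between strains, with a log2 fold change of -0.05 and a 95% interval of -0.25 to 0.15 (adjusted p = 0.657).

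At *rec12* the balance of the strands was inverted between strains. Antisense counts made up 62.9%, 85.9% and 83.5% of the sense and antisense counts in *spx1*Δ replicates 1, 2 and 3, against 29.4%, 27.0% and 29.6% in wild-type replicates. The lowest exact 95% binomial bound in *spx1*Δ was 57.2% and the highest in wild type was 39.7%; these bounds cover counting error only. The difference of the means was 48.8 percentage points. An exact two-sided permutation test over the 6 libraries gave p = 0.1, the smallest value that 3 against 3 can give, and 0.2 when adjusted over the 4 loci. At *rec7* the share was 85.0%, 87.1% and 91.6% in *spx1*Δ and 91.3%, 94.3% and 84.5% in wild-type replicates, with overlap (exact permutation p = 0.7). The gene and its antisense RNA both rose there. At *rec11* the share was 22.4%, 22.1% and 19.4% in *spx1*Δ and 24.0%, 23.0% and 23.4% in wild-type replicates, a difference of only -2.17 percentage points (exact permutation p = 0.1, adjusted 0.2). At *dmc1* nearly all counts were antisense in both strains, at 97.9% to 99.0% in *spx1*Δ and 98.1% to 98.5% in wild-type libraries. Summed over the 4 loci, the share was 83.0%, 88.1% and 88.6% in *spx1*Δ replicates and 80.3%, 77.7% and 82.2% in wild-type replicates (exact permutation p = 0.1). The sources used here do not give the strand setting of the counting, and how far reads of one strand entered the count of the other was not tested.

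**Figure D4:**
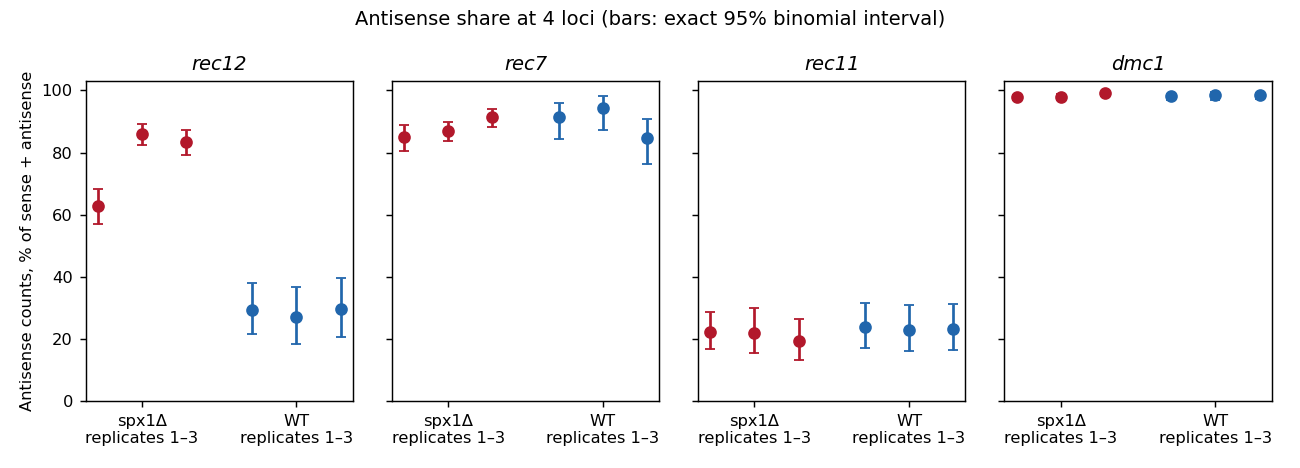
Antisense counts as a percentage of sense plus antisense counts (vertical axis) at *rec12*, *rec7*, *rec11* and *dmc1* in *spx1*Δ (red) and wild-type (blue) replicates 1 to 3, with exact 95% binomial intervals. Only at *rec12* do the strains stand far apart, at 62.9% to 85.9% in *spx1*Δ and 27.0% to 29.6% in wild type.

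In the reference annotation of build ASM294v3, a later release than the ASM294v2 used for the counts, several of the genes also overlap a protein-coding gene on the opposite strand. These neighbors were looked up after the fold changes were known. *rec15* overlaps SPBC1711.15c, for a protein known only in this species, which itself rose, with 1179, 1757 and 1775 normalized counts in *spx1*Δ replicates, against 341, 383 and 355 in wild-type replicates (log2 fold change 2.13, SE 0.17, adjusted p = 0.00152 by edgeR). For each 100 counts of SPBC1711.15c there were 2.07, 7.02 and 4.17 counts of *rec15* in *spx1*Δ replicates 1, 2 and 3, against 1.42, 2.13 and 2.82 in wild-type replicates. These ratios overlapped between strains, so the rise of *rec15* went with a rise of the gene on the other strand, and whether reads of that gene contribute to *rec15* was not tested.

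No other overlapping coding gene was called in the direction of its partner. *rec25* overlaps *pex6*, for a peroxisome biogenesis ATPase, which fell by 0.25 on the log2 scale (adjusted p = 0.0313). Per 100 counts of *pex6*, *rec25* had 22.6, 33.4 and 28.0 counts in *spx1*Δ replicates and 7.55, 5.87 and 7.44 in wild-type replicates, without overlap. *rec10* overlaps *zip1*, for a bZIP transcription factor, whose log2 fold change was -0.14 (adjusted p = 0.0620). Per 100 counts of *zip1*, *rec10* had 16.7, 23.9 and 24.6 counts in *spx1*Δ replicates and 9.48, 9.99 and 10.5 in wild-type replicates. *rec27* overlaps *tho5*, with a log2 fold change of 0.33 (adjusted p = 0.0727).

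Of the 20 nearest protein-coding genes that flank the 10 recombination genes without overlap, 2 were called higher and 9 lower. The 10 that flank the 5 raised genes included 1 called higher, 5 lower and 4 not called. The one that was higher was *pwp1*, downstream of *rec15*, with a log2 fold change of 0.41 (adjusted p = 0.00312). *his1*, upstream of *rec10*, fell by 0.55 (adjusted p = 0.00863) and SPAC105.03c, downstream of *rec25*, fell by 0.80 (adjusted p = 0.00989). These calls among flanking genes are to be read against the 21.2% of protein-coding genes called higher and 30.2% called lower.

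The wider recombination pathway changed in both directions. Of 47 further genes in 4 lists, 45 were tested, 12 rose, 11 fell and 22 did not pass, shares of 26.7% and 24.4% that lie beside the 27.6% and 25.4% of all genes. Their median log2 fold change was 0.02. With 1 library left out the rises numbered 4 to 19 and the falls 4 to 17. For break formation and the chromosome axis, 3 of 9 tested genes rose and 4 fell, with a median of -0.28. *mre11*, also known as *rad32*, for the nuclease that trims broken ends, rose by a log2 fold change of 1.23 (SE 0.20, adjusted p = 0.00553 by edgeR). *mek1*, for the kinase that acts on the linear elements in meiotic prophase, had 97.0, 136 and 107 normalized counts in *spx1*Δ replicates, against 45.9, 62.0 and 58.8 in wild-type replicates (log2 fold change 1.03, adjusted p = 0.0100). *rec8*, for the meiotic cohesin subunit that partners Rec11, had 77.7, 53.5 and 53.6 in *spx1*Δ replicates, against 103, 89.7 and 97.5 in wild-type replicates, and fell by 0.65 (adjusted p = 0.0373); with 1 library left out this call held only without *spx1*Δ replicate 1. *rec8* and *rec11* had lower values in every *spx1*Δ library than in any wild-type library, *rec11* without passing the test, whereas *rec10* was higher. The falls of this list that held with any 1 library left out were those of *rec14* (-0.54, adjusted p = 0.00502 by edgeR) and *psc3* (-0.39, adjusted p = 0.00570). The remaining fall, of *rad50* (-0.24, adjusted p = 0.0460), held only without *spx1*Δ replicate 1. *mde2*, for a partner of Rec15, and *moa1* had too few counts to be tested.

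For strand exchange, 4 of 13 genes rose and 2 fell, beside 27.6% of all genes called higher and 25.4% lower. With 1 library left out, 1 to 7 rose and 0 to 2 fell. In the same fits 15% to 36.8% of all genes were called higher and 9.08% to 38.5% lower. *meu13*, for the Hop2 relative that assists Dmc1, had 232, 784 and 522 normalized counts in *spx1*Δ replicates, against 116, 170 and 153 in wild-type replicates (log2 fold change 1.82, SE 0.44, adjusted p = 0.0163). Its partner *mcp7*, the Mnd1 relative, had 190.3, 268 and 211 in *spx1*Δ replicates, against 143, 145 and 141 in wild-type replicates (log2 fold change 0.64, adjusted p = 0.0192). The calls of *meu13* and *mcp7* were both lost without *spx1*Δ replicate 3 or any 1 wild-type replicate, at an adjusted p of up to 0.0654 and 0.0699. Other accessory genes of strand exchange did not move together. *swi5* rose by a log2 fold change of 0.61 (adjusted p = 0.0142 by edgeR). *sfr1* was at -0.14 (adjusted p = 0.282) and *rdh54* at 0.10 (adjusted p = 0.485), and *sws1* fell by 0.52 (adjusted p = 0.0187). *rti1*, for a relative of Rad52, fell by 1.28 (adjusted p = 0.0177). The calls of *swi5*, *rti1* and *sws1* were lost without *spx1*Δ replicate 3 or wild-type replicate 1 or 2, and that of *sws1* also without wild-type replicate 3. For joint molecules and mismatch repair, 1 of 12 genes rose and 2 fell, to be read beside the same 27.6% and 25.4% of all genes. Mus81 and Eme1 form the nuclease that resolves joint molecules into crossovers, and their genes moved in opposite directions. *mus81* had 1441, 2119 and 1933 normalized counts in *spx1*Δ replicates, against 868, 879 and 888 in wild-type replicates, and rose by a log2 fold change of 1.06 (SE 0.14, adjusted p = 0.00386). *eme1* fell by 0.59 (adjusted p = 0.00607), and *rmi1*, for a subunit of the complex that dissolves joint molecules, fell by 0.50 (adjusted p = 0.00757).

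For chromosome movement and pairing in prophase, 4 of 11 genes rose and 3 fell, with a median log2 fold change of 0.33. Over all genes 27.6% were called higher and 25.4% lower. The counts of this list depended on the library left out. Its rises numbered 0 without *spx1*Δ replicate 3 or wild-type replicate 2 or 3. They numbered 1 when *spx1*Δ replicate 2 was left out and 6 when *spx1*Δ replicate 1 was, and the falls 0 to 5. Calls over all genes shifted in those fits too. The share called higher was 15.3% to 16.5% where the list had 0 rises, 21.6% where it had 1 and 36.8% where it had 6. Whether the list shifted more than all genes was not tested. By limma-voom the rises of this list numbered 2. The largest rises were those of *bqt2* (1.17, adjusted p = 0.0343) and *bqt1* (0.86, adjusted p = 0.0447), whose products tether telomeres to the spindle pole body in meiosis, and of *mcp6* (0.78, adjusted p = 0.0148), for a spindle pole protein of the horsetail stage. *bqt1* and *bqt2* were called with 1 library left out only when that was *spx1*Δ replicate 1, and *mcp6* was lost in 3 of 6 such fits. *bqt3* and *bqt4*, which are also used in vegetative cells, were among those that fell.

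**Figure D5:**
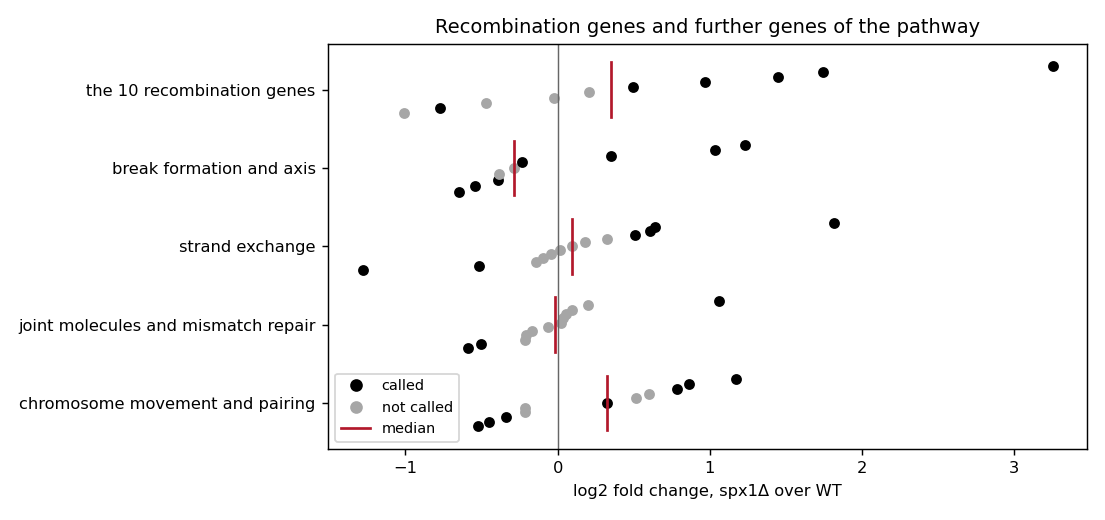
Log2 fold change of *spx1*Δ over wild type (horizontal axis) for each tested gene of the 10 recombination genes and of the 4 further lists, black where called at an adjusted p of at most 0.05 and grey where not, with the list median in red. Medians range from -0.28 for break formation and axis to 0.35 for the 10 recombination genes.

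The culture state was checked with marker lists, whose counts are again to be read beside 27.6% of all genes called higher and 25.4% lower. Of 10 regulators of meiotic entry, 5 rose and 1 fell, and their summed normalized counts were 12756 to 14425 in *spx1*Δ and 11652 to 12094 in wild-type libraries. *mei3*, for the inducer of meiosis that inhibits the Pat1 kinase, rose by a log2 fold change of 4.97 (adjusted p = 0.00444), the bZIP factor gene *atf31* by 3.82 (adjusted p = 0.00281) and *mei4*, for the forkhead factor of middle meiosis, by 1.76 (adjusted p = 0.00105). The 5 rises also included *pat1*, for the kinase that Mei3 inhibits, at 0.44 (adjusted p = 0.0149 by edgeR). That call was lost without *spx1*Δ replicate 3 or wild-type replicate 1 or 2. The other members did not rise together: *mei2*, for the RNA-binding protein that drives entry into meiosis, had 1250.4, 465 and 546 normalized counts in *spx1*Δ replicates and 1328, 1296 and 1509 in wild-type replicates (log2 fold change -0.87, adjusted p = 0.0828), *ste11*, for the main activator of mating genes, was at -0.08 (adjusted p = 0.259), and *rep2* fell by 0.49 (adjusted p = 0.0195), a call lost without *spx1*Δ replicate 3 or any 1 wild-type replicate. Of the summed counts of this list, *ste11* alone took 5709 to 6408 in *spx1*Δ and 6342 to 6409 in wild-type libraries. *mei4* had 374, 444 and 447 normalized counts in *spx1*Δ replicates and 133, 116 and 125 in wild-type replicates, without overlap. Of 12 tested prospore and spore genes out of 14, 4 rose and 1 fell, led by *meu14* (1.80, adjusted p = 0.00792), *isp3* (1.16, adjusted p = 0.00112) and *spn7* (1.09, adjusted p = 0.00646), and their summed level was 16408 to 16953 in *spx1*Δ and 14885 to 15366 in wild-type libraries; *spo4* was at 0 in at least 1 library.

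Of 4 genes typical of P cells, the cell type of *h+* strains, 1 rose, *map2* for the P-factor pheromone (5.01, adjusted p = 0.00379), with a summed level of 27820.1 to 37964 in *spx1*Δ and 25642 to 26986 in wild-type libraries. *map1*, *map3* and *sxa1* were not called. Most of the sum was *sxa1*, at 25753 to 31858.5 in *spx1*Δ and 24415 to 25699 in wild-type libraries (adjusted p = 0.0577 by edgeR). Of 6 genes typical of M cells, 5 were tested, 3 rose and 1 fell, with a sum of 2421 to 4283 in *spx1*Δ and 2032 to 2252 in wild-type libraries, and *mfm3*, an M-factor gene, had the largest rise (3.42, adjusted p = 0.00495). The M-factor gene *mfm2* was at 0.32 (adjusted p = 0.176 by edgeR), and *mfm1* had too few counts to be tested. *mam2* rose by 1.59 (adjusted p = 0.0156) and *mam1* fell by 0.43 (adjusted p = 0.0289). With 1 library left out, these 2 calls held in 2 and 1 of 6 fits. The part of these states in the changes of the recombination genes was not tested. Of 8 genes for the degradation of meiotic RNAs in vegetative cells, 3 rose and 3 fell. *mmi1* itself had a log2 fold change of 0.57 (SE 0.13, adjusted p = 0.0130), and *erh1*, for its partner, fell by 1.06 (SE 0.23, adjusted p = 0.0123), followed by *pir2*, which fell by 0.58 (adjusted p = 0.0176). The calls of *mmi1*, *erh1* and *pir2* were lost in 3, 1 and 4 of the 6 fits with 1 library left out.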

How the data were processed

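Poly(A)+ RNA of 3 *spx1*Δ and 3 wild-type cultures was sequenced with a strand-specific kit. The authors mapped the reads to ASM294v2 with HISAT2 2.1.0 and SAMtools and counted them per gene with HTSeq 0.10.0, and the deposited counts are whole numbers before scaling. The deposited DESeq2 table of the authors served only for gene names and types; its means, fold changes and p-values were not used. Of 6987 rows, 1 duplicate with 0 counts was dropped, and 6833 of 6986 IDs matched the ASM294v3 annotation, used only to find neighbors. In R 4.3.3, counts were filtered with filterByExpr, scaled by TMM and tested with glmQLFit and glmQLFTest of edgeR 4.0.16, with 2 strains and no further terms, with Benjamini-Hochberg adjusted p-values over all genes tested. Standard errors are the absolute log2 fold change over the square root of F. Intervals use the total degrees of freedom of the test, which are the residual ones plus the prior ones of edgeR. The test was checked on simulated data. These had the same spread for all genes and no library that stood apart, so that check does not cover the effect of *spx1*Δ replicate 1. Only a small share of genes was changed in them, and none with few counts. The check therefore does not cover the many calls seen here or genes with as few counts as *rec27* and *dmc1*. Alternatives used DESeq2 1.42.0, limma 3.58.1, other scalings, no filter, a replicate block and each library left out. All 10 genes and all tested antisense RNAs are named; from each further list, up to 3 called genes with the largest change are named with values, and others only where the text says why. The genes and lists were chosen with earlier results of these data known.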

Additional observations from a re-analysis of the deposited data

How the results depend on the processing

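Of the recombination genes, *rec10* and *rec25* were called under all 13 alternatives, *rec6* and *rec15* under 12, *rec7* under 8 and *rec12* under 7; *rec24* and *dmc1* were called under none, and *rec11* and *rec27* under 1 each. With 1 library left out, 3 to 5 of the 10 genes were higher and 0 to 3 lower, with 936 to 2268 and 555 to 2377 over all genes; antisense RNAs of these genes numbered 1 to 2 higher and 0 to 1 lower, and other recombination genes 4 to 19 higher and 4 to 17 lower. The cause of these shifts was not tested. In a fit of protein-coding genes alone 0 of the 10 were lower, and *rec12* was at -0.70 (adjusted p = 0.0548 by edgeR). The rule of the study left 1 higher and 0 lower, by its added thresholds. The mean of the per-locus antisense shares differed by 11.1 percentage points, against 6.51 for the summed counts, since each locus then weighs alike. The sign of *dmc1* turned with library size only (0.024), with protein-coding genes only (0.053) and with a library left out (-0.23 to 0.23), and that of *dmc1-antisense-1* with library size only (0.0015) and with a library left out (-0.099 to 0.021). Same-numbered replicates showed no clear pairing. Their deviations from the group means correlated at 0.11, 0.03 and 0.05, and not every library correlated best with its own number. Deviations within a group depend on each other, and *spx1*Δ replicate 1 stood apart, so this check cannot exclude pairing. With the replicate block 1521 genes were higher and 1400 lower, and of the recombination genes 4 were higher and 1 lower, with *rec7* at 1.41 (adjusted p = 0.0529). Promoter motifs were not analysed here, since no promoter sequence of the build used for counting was used. *rec7*, *rec15*, *rec27* and *dmc1* had few counts, which limits their precision.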
